A study of Mus musculus with 2 samples.

Results

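The 40 genes described here are a list of cell cycle genes, chosen by symbol: 13 genes of DNA replication and nucleotide supply (the S list), 25 genes of mitosis (the mitotic list), Stmn1 and Hmgb2. Every listed symbol was found in both count matrices, so the list makes up 40 of 32285 genes. They were measured by single-cell RNA sequencing of immune cells from mouse brains that carried GL261, a mouse glioma cell line. One library came from wild-type mice and the other from mice labelled Fcgr2b knockout; the gene encodes the inhibitory Fc gamma receptor IIB, and the labels do not describe the allele. Both genotypes were given anti-PD-1, a checkpoint antibody, at 200 µg on day 10, day 13 and day 16 of tumour growth, and brains were taken on day 20. Cells of 5 brains per genotype were pooled and sorted as CD45.2+ 7-AAD-, that is, as live leukocytes. No untreated or tumour-free group was part of the comparison, so every value describes cells after anti-PD-1.

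With 1 pooled library per genotype there is no replicate, no test between genotypes and no p-value, and mouse, pool and library differences cannot be told apart from genotype. Intervals are 95% intervals that cover counting error only: exact Poisson for levels, exact Clopper-Pearson for shares and exact conditional for ratios. The wild-type library held 3854 barcodes and 14170828 UMIs (unique molecular identifiers, each 1 captured RNA molecule), and the knockout-labelled library held 9194 barcodes and 50921793 UMIs. After filtering, 3538 and 8148 cells remained, with medians of 2599 and 3958 UMIs per cell. The libraries shared 46 barcode sequences, 1.19% of the wild-type and 0.5% of the knockout-labelled barcodes. Ptprc, which encodes CD45, had a UMI in 84.9% and 81.8% of cells. Fcgr2b RNA was present in both libraries, at 62.7 CPM (UMI counts scaled to a total of 1000000; 58.5 to 67.2) in wild-type cells and 116 CPM (113 to 119) in knockout-labelled cells. Within the macrophage or monocyte class it stood at 375 CPM (339 to 414) and 238 CPM (231 to 246). The deleted part of the gene is not given in the labels and reads from the 5' end can come from outside it, so these levels do not check the label, and every direction below is that of the library labelled Fcgr2b knockout. The labels give polyA RNA for the wild-type and total RNA for the other library, and the sorting text names lung although the tissue is brain; the part of these differences in the results was not tested.

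A dividing cell switches its genes on in waves. In late G1 and S phase, E2F factors drive the genes that license and copy DNA: the Mcm helicase that unwinds it, the clamp Pcna that holds the polymerases, and the enzymes that make deoxynucleotides. In G2 and mitosis, MYBL2 with the MuvB complex and then FOXM1 drive a later wave that includes B-type cyclins, Aurora and Polo kinases, kinetochore proteins and spindle motors, and the same promoters are held silent in resting cells by the DREAM complex through CHR elements, often beside CCAAT boxes. T cells that meet antigen in a tumour divide fast, tissue-resident mast cells and microglia renew slowly, and plasmacytoid and migratory dendritic cells are regarded as non-dividing in tissue.

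Promoters of Ube2c and Ccnb2 from the mitotic list, and of Mcm5 and Mcm6 from the S list, are shown because the results below set these lists apart. Each runs 5' to 3' from 250 bases before to 50 bases after the transcription start, from RefSeq (GRCm38.p6). Ube2c lies at chr2:164769679-164769978 on the plus strand, Ccnb2 at chr9:70421505-70421804 on the minus strand, Mcm5 at chr8:75109259-75109558 on the plus strand and Mcm6 at chr1:128359656-128359955 on the minus strand. Capitals mark every match, on either strand, to the CHR element (TTTGAA or TTCGAA), the CCAAT box (CCAAT) or an E2F site (TTTCCCGC, TTTCGCGC, TTTGCCGC or TTTGGCGC); matches on opposite strands can overlap.
Ube2c: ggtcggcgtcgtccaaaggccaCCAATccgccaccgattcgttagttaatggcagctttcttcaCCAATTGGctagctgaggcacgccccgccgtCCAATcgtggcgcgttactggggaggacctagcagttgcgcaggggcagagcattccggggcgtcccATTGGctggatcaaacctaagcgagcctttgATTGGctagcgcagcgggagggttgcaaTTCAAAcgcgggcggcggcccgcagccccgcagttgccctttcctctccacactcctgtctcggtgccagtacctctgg
Ccnb2: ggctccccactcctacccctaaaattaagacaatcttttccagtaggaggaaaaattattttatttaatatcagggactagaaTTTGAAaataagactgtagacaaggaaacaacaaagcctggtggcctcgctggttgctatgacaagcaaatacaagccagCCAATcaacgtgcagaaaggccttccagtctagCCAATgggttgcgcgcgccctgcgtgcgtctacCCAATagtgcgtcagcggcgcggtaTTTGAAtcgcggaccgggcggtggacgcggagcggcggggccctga
Mcm5: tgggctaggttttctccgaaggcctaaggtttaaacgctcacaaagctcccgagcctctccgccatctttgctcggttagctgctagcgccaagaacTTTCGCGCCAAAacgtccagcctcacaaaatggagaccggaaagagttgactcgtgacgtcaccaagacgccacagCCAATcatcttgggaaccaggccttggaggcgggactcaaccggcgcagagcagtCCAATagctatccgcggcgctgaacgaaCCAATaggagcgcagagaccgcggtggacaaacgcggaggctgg
Mcm6: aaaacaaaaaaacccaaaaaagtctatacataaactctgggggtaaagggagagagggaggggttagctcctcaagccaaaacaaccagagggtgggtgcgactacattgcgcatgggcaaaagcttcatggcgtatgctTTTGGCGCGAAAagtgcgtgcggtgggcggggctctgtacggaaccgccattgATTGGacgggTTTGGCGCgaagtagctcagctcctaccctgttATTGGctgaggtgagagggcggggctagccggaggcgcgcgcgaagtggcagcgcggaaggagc

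The Ube2c promoter held a CHR match 29 bases before the start and CCAAT boxes 57 and 88 bases before it, whereas the Mcm6 promoter held E2F matches 110, 106 and 47 bases before the start and no CHR match. A RefSeq promoter was found for 33 of the 40 members; Mcm4, Gins2, Stmn1, Ccna2, Tpx2, Aurkb and Spc24 were not among them. Among mitotic genes, 17 of 21 promoters held a CHR match (81%) and each of these 17 also held a CCAAT box. Among S genes, 2 of 11 did (18.2%). E2F matches went the other way, in 5 of 11 S promoters (45.5%) and in 1 of 21 mitotic promoters (4.76%), that of Cdk1. Over the promoters of all 27025 genes in the table the shares were 21.7% for CHR, 41.1% for the CCAAT box, 2.6% for E2F and 8.61% for CHR with CCAAT. A match is a run of letters and does not show binding.

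A cell was called cycling when it held at least 3 UMIs from at least 2 different genes among the 38 members other than Stmn1 and Hmgb2, which resting cells also make. Every cell was first thinned to 1500 UMIs, so that deeper cells were not called more easily; 802 wild-type and 815 knockout-labelled cells had fewer and were left out. A stricter call needed at least 5 UMIs. The low cut lies among cells with few UMIs: 226 of the 481 wild-type and 431 of the 1032 knockout-labelled cycling cells had 3 or 4 UMIs, and a further 361 and 931 cells had exactly 2. At the other end, 130 and 350 cells held 10 or more. The plot of UMIs per cell shows this long tail in both libraries.

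**Figure D1:**
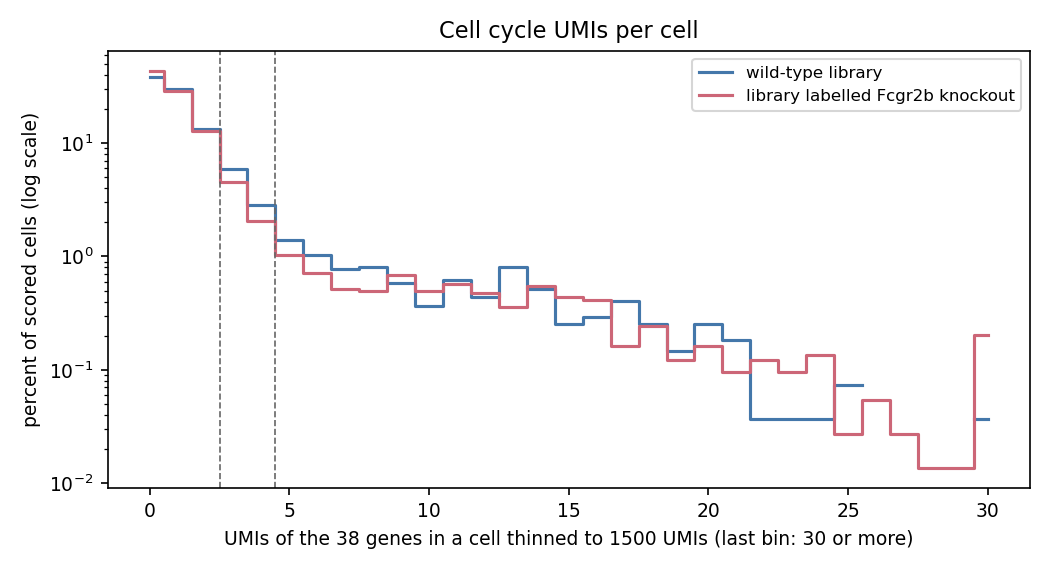
UMIs of the 38 genes per cell after thinning to 1500 UMIs (x axis) against the percent of scored cells on a log scale (y axis), for the wild-type library (blue, 2736 cells) and the library labelled Fcgr2b knockout (red, 7333 cells). Dashed lines mark the cuts of at least 3 and at least 5 UMIs; gaps are bins with no cell, and a tail beyond 10 UMIs is seen in both libraries.

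Of all scored cells, 17.6% were cycling in the wild-type library (16.2 to 19.1; 481 of 2736) and 14.1% in the knockout-labelled library (13.3 to 14.9; 1032 of 7333). With at least 5 UMIs the shares were 9.32% (8.26 to 10.5) and 8.2% (7.58 to 8.85), and the interval of their ratio, 0.758 to 1.02, included 1. Without thinning the order turned, to 31.5% and 38.7%, and the knockout-labelled cells were the deeper ones. Cell classes were taken from clusters made without the listed cell cycle genes and named by marker genes, so each name below means a cell with those markers. Cell cycle genes outside the lists, such as Cks1b, were not kept out, so cycling can still shape clusters. The 2 libraries held different mixtures of classes: macrophages or monocytes were 10.5% of the scored wild-type cells and 41% of the scored knockout-labelled cells. Given the knockout-labelled library's class mixture, the wild-type class rates would have given 14.2% at the low cut and 7.97% at the strict cut, against the 14.1% and 8.2% observed in the knockout-labelled library. With the wild-type mixture, the knockout-labelled class rates would have given 18% and 10.7%, against the 17.6% and 9.32% observed in the wild-type library.

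Cycling cells were mostly T cells. At the strict cut the T cell classes held 81.6% of wild-type cycling cells (76.3 to 86.1; 208 of 255) and 89.2% of knockout-labelled ones (86.4 to 91.6; 536 of 601). CD8 T cells alone made up 37.3% and 55.1% of the cycling cells, regulatory T cells 20.4% and 19.1%, and conventional CD4 T cells 15.7% and 6.82%. CD8 T cells were 16.5% and 18.9% of the scored cells. NK cells gave 6.27% and 1.5% of the cycling cells, mast cells 4.31% and 0.832%, and macrophages or monocytes 0.392% and 2.33%.

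Regulatory T cells, which express Foxp3 and restrain immune responses, had the highest cycling share of any class with over 30 scored cells in each library. It was 38.1% in the wild-type library (31.6 to 44.9; 83 of 218) and 37.1% in the knockout-labelled library (32.6 to 41.8; 167 of 450). CD8 T cells, the killer lymphocytes, followed at 32.4% (28.1 to 36.9; 146 of 451) and 32.2% (29.7 to 34.7; 446 of 1386). The intervals of these neighbours in the order overlapped. Conventional CD4 T cells stood at 22.9% (18.1 to 28.3; 64 of 279) and 21.5% (17.6 to 25.9; 87 of 404). Between the libraries the ratio of shares, knockout-labelled over wild-type, was 0.994 in CD8 T cells (0.823 to 1.21), 0.975 in regulatory T cells (0.745 to 1.28) and 0.939 in CD4 T cells (0.672 to 1.32). At the strict cut the same ratios were 1.13 (0.9 to 1.44), 1.07 (0.766 to 1.52) and 0.708 (0.447 to 1.12). Each of these 6 intervals included 1.

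**Figure D2:**
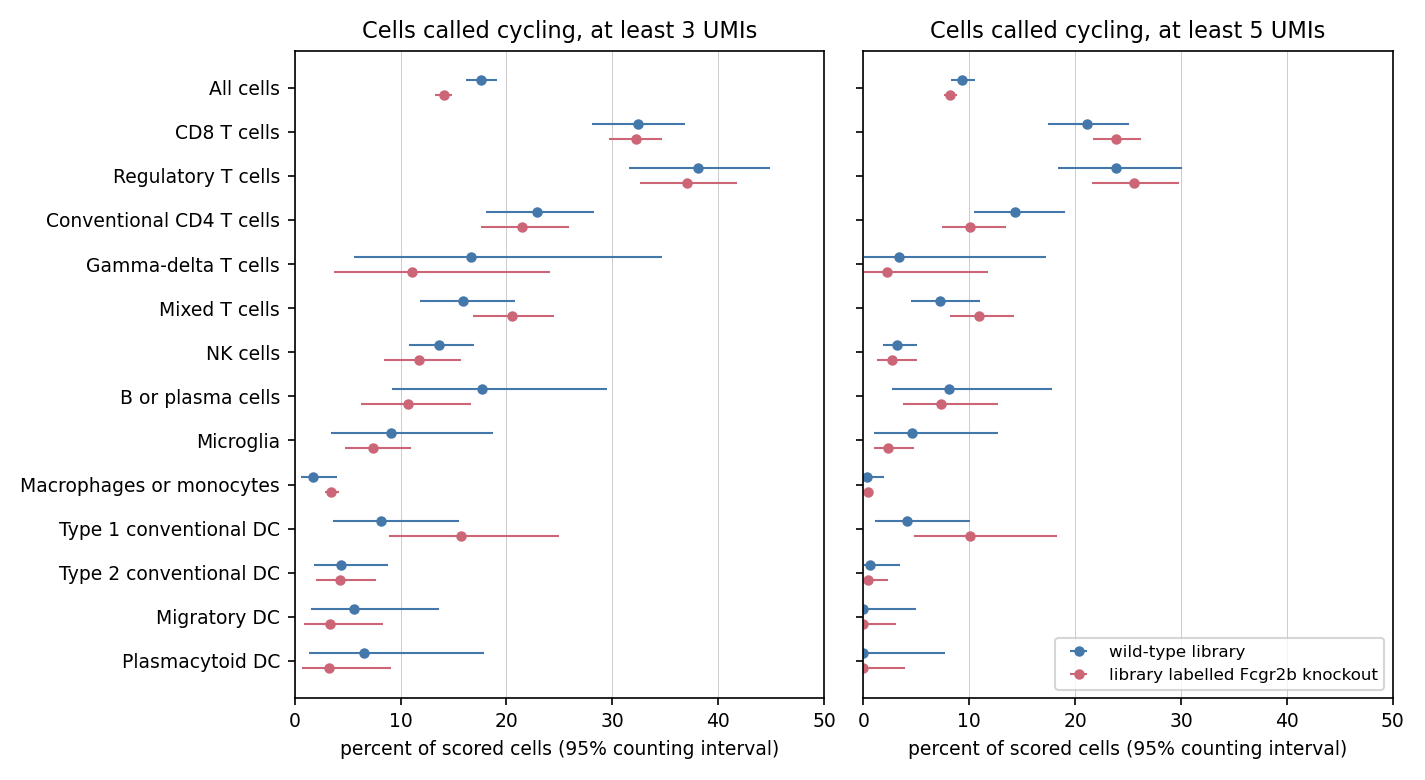
Percent of scored cells called cycling (x axis) by cell class (y axis) at the low cut (left) and the strict cut (right), for the wild-type library (blue) and the library labelled Fcgr2b knockout (red). Points are shares and bars 95% Clopper-Pearson intervals; classes with under 30 scored cells in a library are not drawn, and regulatory and CD8 T cells lie furthest to the right in both libraries.

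Inside the CD8 class the cycling share differed between clusters and between libraries. A cluster led by Cd8a, Cd8b1 and the members Ube2c, Pclaf and Birc5 held 36.8% strict-cut cycling cells in the wild-type library (30.3 to 43.7, 78 of 212). In the knockout-labelled library it held 50.8% (46.3 to 55.4, 243 of 478). The listed genes were not used to form clusters, but other cell cycle genes were not kept out, so these shares are not independent of the clustering. In a cluster led by Zbtb32, Xcl1 and Ifng the shares were 12.4% (6.76 to 20.2; 13 of 105) and 26.4% (21.3 to 32; 73 of 277). A Gzmk cluster gave 4.4% and 2.62% at the strict cut, and at the low cut 19.8% (12.2 to 29.4) and 9.91% (6.96 to 13.6), the opposite order to the first pair of clusters. A cluster led by Ccl5 and Hcst gave 0 of 43 cells, which allows up to 6.98%, and 2.08% (6 of 288). The clusters with few cycling cells were a larger part of the knockout-labelled class: the Ccl5 cluster was 9.53% of wild-type and 20.8% of knockout-labelled CD8 T cells. With the cluster mixture of the other library, the wild-type rates gave 16.3% where the knockout-labelled class had 23.9%, and the knockout-labelled rates gave 30.8% where the wild-type class had 21.1%. Both the rates and the mixtures rest on clusters drawn from these cells.

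A further T cell group, whose clusters did not meet the rules for a named subset, had 15.9% (44 of 276) and 20.5% (90 of 440) cycling cells. Its largest cluster had a Cd8a or Cd8b1 UMI in 40.4% and a Cd4 UMI in 4.38% of cells. The next largest had 7.25% and 42.6%. A cluster led by Aspm and Mki67 made up 5.8% of the wild-type and 18.6% of the knockout-labelled cells of this group. In that cluster 6 of 16 and 27 of 82 cells passed the strict cut. Gamma-delta T cells, a small population of innate-like lymphocytes, had 5 of 30 and 5 of 45 cycling cells.

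NK cells, cytotoxic innate lymphocytes, gave 13.6% (10.8 to 16.9; 69 of 506) and 11.7% (8.46 to 15.7; 39 of 333). Most of these had 3 or 4 UMIs (53 of 69 and 30 of 39), and at the strict cut the shares were 3.16% and 2.7%. When cells were called instead by at least 2 mitotic UMIs, the shares were 3.16% and 7.51%, a ratio of 2.37 (1.22 to 4.76). Of the NK cells, a cluster led by Klra8 and Klra4 held 96.4% in the wild-type and 63.7% in the knockout-labelled library, and one led by Gzma and Klra4 held 3.56% and 36.3%.

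Among myeloid cells, macrophages or monocytes, the class with the most scored knockout-labelled cells, had few cycling cells: 1.75% (5 of 286) and 3.46% (2.84 to 4.18; 104 of 3005) at the low cut, and 1 cell and 14 cells (0.35% and 0.466%) at the strict cut. Of the 104 knockout-labelled cells, 90 had only 3 or 4 UMIs. Different clusters filled this class in the 2 libraries: an inflammatory cluster led by Cd14, Nos2 and Inhba and an Apoe, Arg1 and C1q cluster made up 42.1% and 42.8% of it in the knockout-labelled library and 6.99% and 5.24% in the wild-type library. Microglia, the resident macrophages of the brain, had 9.09% (6 of 66) and 7.43% (22 of 296), and 3 and 7 cells at the strict cut. Type 1 conventional dendritic cells, which cross-present antigen to CD8 T cells, had 8.16% (8 of 98) and 15.7% (14 of 89); at the strict cut the ratio of shares was 2.48, with an interval of 0.691 to 11. Type 2 conventional dendritic cells had 4.4% (7 of 159) and 4.24% (10 of 236).

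Mast cells stood out among the rarer cells: 13 of 68 wild-type mast cells were cycling (19.1%), 11 of them at the strict cut, and 5 of 10 in the knockout-labelled library. Basophils, which share many mast cell genes, had 4 of 77 and 0 of 10 at the low cut and none at the strict cut, which allows up to 3.9% and 30%. A small plasma cell cluster led by Mzb1 and Derl3 had 4 of 18 and 3 of 7 strict-cut cells, and the B cell cluster 2.27% and 5.59%. Neutrophils had few cells deep enough to score, with 1 of 10 and 7 of 20 cycling.

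Plasmacytoid and migratory dendritic cells served as reference classes for free RNA and miscalls. At the low cut they gave 6.52% (3 of 46) and 3.23% (3 of 93) for plasmacytoid cells, and 5.56% (4 of 72) and 3.33% (4 of 120) for migratory cells, with median depths of 4028, 6875, 3846 and 4983 UMIs against 3142 and 4543 in CD8 T cells. The low-cut intervals of plasmacytoid cells, 1.37 to 17.9 and 0.67 to 9.14, rest on 3 cells each. NK cells, gamma-delta T cells, B or plasma cells and basophils overlapped them in both libraries. So did macrophages or monocytes, microglia, and type 1 and type 2 dendritic cells. The T cell group without a subset name, mast cells and neutrophils overlapped them in the wild-type library only. Shares with such overlap are not read as above those of plasmacytoid cells. CD8, regulatory and conventional CD4 T cells lay above in both libraries, with wild-type CD4 T cells (18.1 to 28.3) only just so. At the strict cut both reference classes had 0 cells in both libraries, which allows up to 6.52% and 3.23% of plasmacytoid and 4.17% and 2.5% of migratory dendritic cells. The strict-cut shares of NK cells, macrophages and microglia therefore were not above what these zeros allow in at least 1 library, while those of CD8, CD4 and regulatory T cells were.

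Cycling cells were also deeper cells. Strict-cut CD8 cells had a median of 7847 UMIs against 2979 in other CD8 cells of the wild-type library, and 10398 against 3903 in the knockout-labelled library. A UMI of the macrophage genes C1qa, C1qb, C1qc or Apoe was found in 4.21% of strict-cut and 2.3% of other wild-type CD8 T cells, and in 31.7% and 29.8% of knockout-labelled ones, so this share differed more between the libraries than between cycling and other cells of 1 library. Among cells removed as doublets, 17.1% and 11.3% passed the strict cut, against 9.32% and 8.2% of kept cells; the part of undetected doublets was not tested.

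Within cycling cells the balance between the lists differed between the libraries. Thinning was used for the call only: the shares of UMIs count all UMIs of the called cells, so deeper cells weigh more. Of all mitotic and S UMIs in low-cut cycling cells, 53.5% were mitotic in the wild-type library (52.7 to 54.2) and 60.4% in the knockout-labelled library (60 to 60.8). In regulatory T cells the shares were 52.4% (50.8 to 54) and 59.6% (58.7 to 60.4), in CD8 T cells 56.8% (55.6 to 58) and 60.1% (59.6 to 60.6), and in CD4 T cells 55.5% (53.6 to 57.4) and 57.2% (55.8 to 58.6). The mitotic share was thus higher in the knockout-labelled library in each of these classes, with overlapping intervals in CD4 T cells. UMIs of 1 cell are not independent, so these intervals are too narrow. Counted by cells, after thinning, 49.4% and 56.4% of all strict-cut cycling cells held more mitotic than S UMIs. The libraries lay closer in CD8 T cells, at 51.6% and 54.4%, while in regulatory T cells, at 55.8% and 52.2%, the order turned. They lay further apart in CD4 T cells (45% and 68.3%), mixed T cells (45% and 64.6%) and NK cells (18.8% and 66.7%). Within each of these classes the intervals overlapped. At the low cut 34.9% and 44.8% of all cycling cells held more mitotic than S UMIs.

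**Figure D3:**
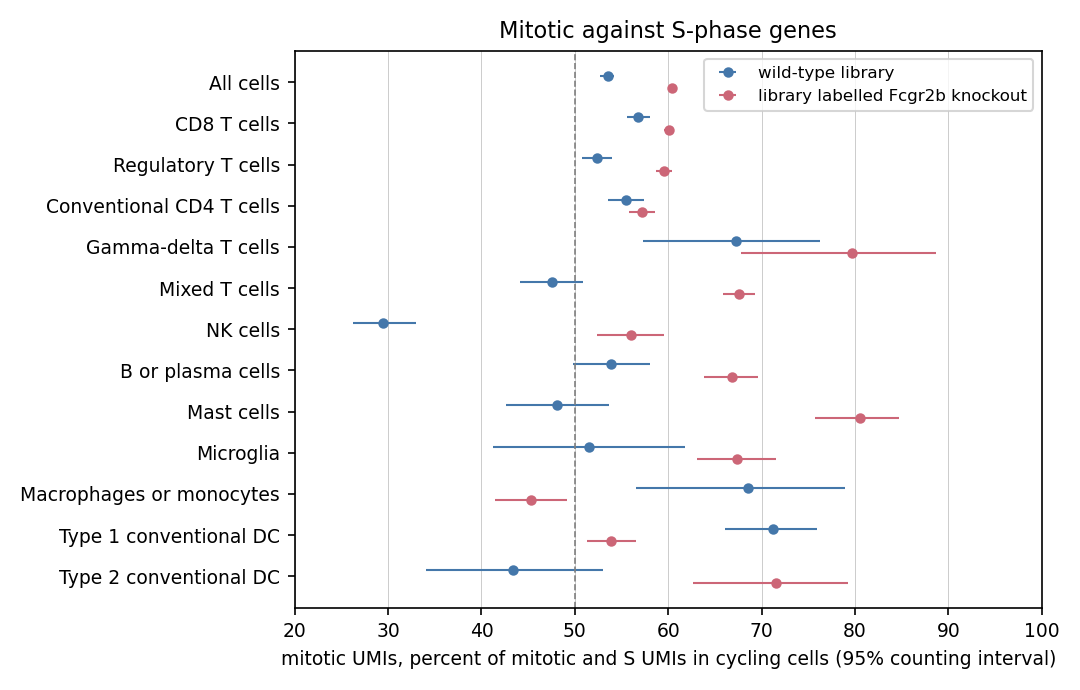
Mitotic UMIs as a percent of mitotic and S UMIs in low-cut cycling cells (x axis) by cell class (y axis), for the wild-type library (blue) and the library labelled Fcgr2b knockout (red). Cells were called after thinning, and all their UMIs were counted. Bars are 95% Clopper-Pearson intervals, the dashed line marks equal numbers, and classes with at least 5 cycling cells in each library are drawn; NK cells of the wild-type library lie lowest, at 29.5%.

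NK cells of the wild-type library lay furthest toward the S list. Their mitotic share was 29.5% (26.2 to 33) against 56% (52.4 to 59.5) in the knockout-labelled library, and 61 of 69 against 24 of 39 cycling NK cells held more S than mitotic UMIs. At the strict cut, with 16 and 9 cells, the shares were 33.9% and 59.8%. Of the 16 wild-type cells 31.2% held a Cd3 UMI, against 7.32% of wild-type NK cells not called cycling. At the low cut a Cd3 UMI was found in 15.4% of cycling and 20.1% of other knockout-labelled NK cells. Too few UMIs left out 36.4% of wild-type and 14% of knockout-labelled NK cells. The part of T cells, doublets and depth in these shares was not tested. The mixed T cells ran from 47.5% to 67.6%. Macrophages or monocytes and type 1 dendritic cells had the opposite order, 68.5% and 45.3% in the former and 71.2% and 53.9% in the latter, with 5 and 8 wild-type cells behind the first values. The 7 cycling neutrophils of the knockout-labelled library all held more mitotic than S UMIs. Most strict-cut cells carried both kinds of RNA, 217 of 255 and 521 of 601, so the lists do not split the cells into phases.

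The members themselves ranged from broad to strictly cycling. As UMIs count molecules whatever their length, levels of different genes can be set side by side as CPM over all cells. Hmgb2, a chromatin protein, was the highest at 803 CPM (wild-type) and 779 CPM (knockout-labelled), followed by Pcna at 294 and 266 CPM, and Stmn1, a microtubule destabiliser, at 160 and 206 CPM. Aurka, Plk1, Gins2, Bub1b, Ccnb1, Bub1 and Cdc20 lay lowest, between 9.41 and 14.7 CPM in the 2 libraries. For each member the cycling call was repeated without that gene, and the part of its own thinned UMIs that fell in cycling cells was counted. Cdca3, a mitotic entry factor, had 95.9% and 88.3% of its UMIs there, and the kinetochore protein Cenpf 93.4% and 89.5%. Birc5 (survivin), a chromosome passenger protein, had 96.2% and 81.5%, and the clamp-associated factor Pclaf 89.6% and 88%. Mki67, the proliferation marker Ki-67 (ENSMUSG00000031004, chr7:135689784-135716361, minus strand), had 83.1% and 78.6%.

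At the other end, Pcna (ENSMUSG00000027342, chr2:132249162-132253314, minus strand) had 24.8% and 21.6% of its UMIs in cells called cycling without it. Cenpa, the centromere histone, had 28.9% and 42.3%, Mcm6 38.6% and 46.9%, and Hmgb2 43.5% and 41.4%. The Mcm helicase genes as a group lay in the middle, from 38.6% to 60.4%.

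**Figure D4:**
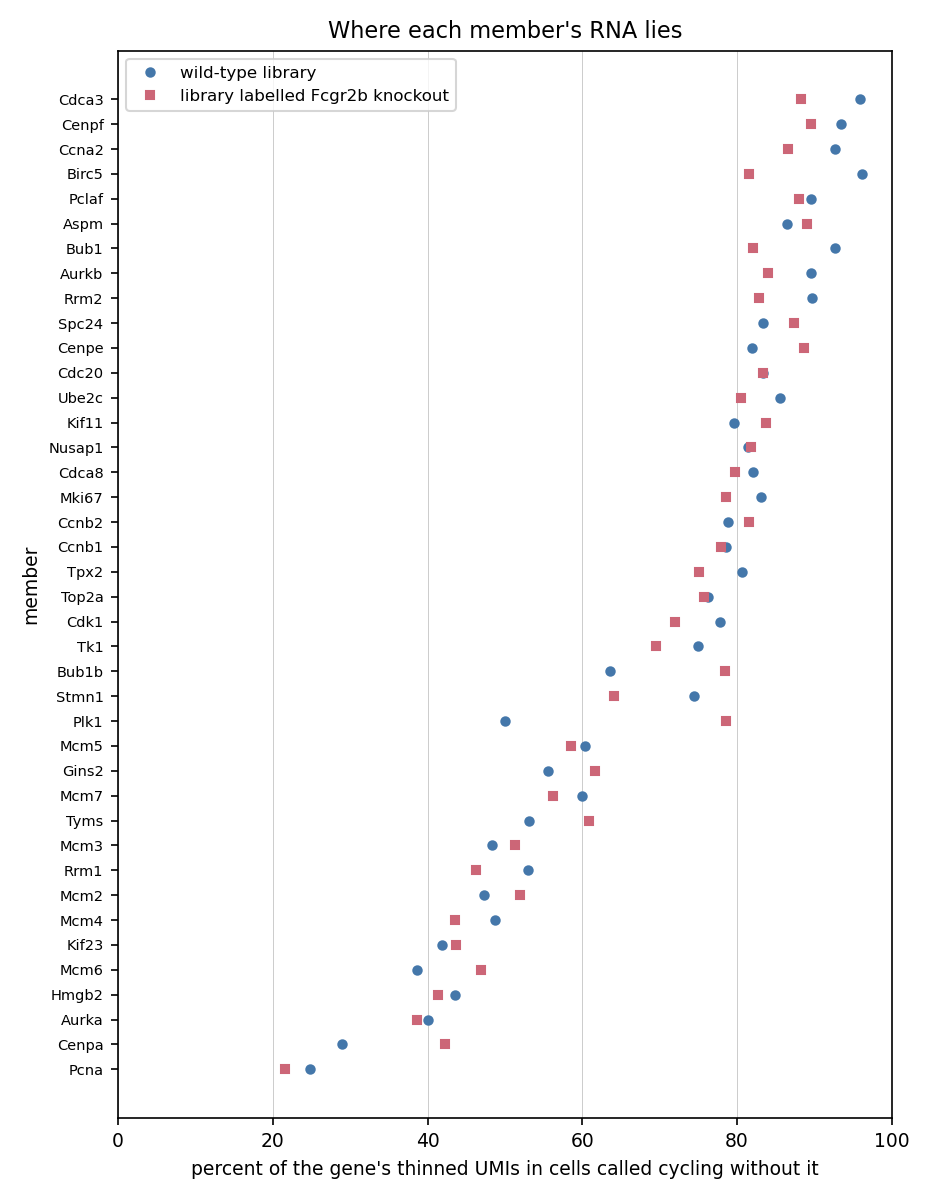
For each of the 40 members (y axis), the percent of its UMIs, after thinning, that lay in cells called cycling without that gene (x axis), in the wild-type library (blue circles) and the library labelled Fcgr2b knockout (red squares). Cdca3 and Cenpf lie at the top of the range and Pcna, at 24.8% and 21.6%, at the bottom.

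Inside the CD8 class, with each gene again left out of the call, members also differed widely. Cenpf stood at 160 CPM in cycling and 2.63 CPM in other wild-type CD8 T cells, and at 176 and 1.63 CPM in the knockout-labelled library. The latter levels rest on 3 and 7 UMIs, which gives ratios of 61 (20.5 to 299) and 108 (52.2 to 269). Cyclin A2 (Ccna2) had ratios of 56.8 and 68.8, and Birc5 of 40.5 and 36.3. Mki67 stood at 389 against 22.4 CPM (17.3-fold, 11.7 to 26.9) and 483 against 19.4 CPM (24.9-fold, 20 to 31.3). Pcna, at 582 against 247 CPM and 544 against 227 CPM, differed 2.36-fold and 2.4-fold only. Stmn1 and Hmgb2, which were never part of the call, were 12.4-fold and 12.7-fold, and 3.67-fold and 4.66-fold, higher in cycling CD8 T cells.

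Levels of the members were then compared between the libraries class by class, as CPM of UMIs summed over all cells of a class. In such sums, fewer cycling cells and less RNA per cycling cell cannot be told apart. A gene entered when it reached 20 CPM in at least 1 library. A difference was called at 2-fold or more on the log2 scale with 10 CPM added, which understates changes of low genes. Ratios are given without that addition, knockout-labelled over wild-type.

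In CD8 T cells the summed members stood at 5157 CPM in the wild-type and 6214 CPM in the knockout-labelled library, a ratio of 1.2 (1.18 to 1.23). Of the 40 members, 34 were higher and 6 lower in the knockout-labelled library, and the median log2 ratio was 0.30 against -0.11 over all 5891 genes compared. No member was called: 0 of 40 either way, against a background of 0.662% of genes called higher and 1.12% called lower. By role, the mitotic kinases and passenger complex were 1.54-fold (1.41 to 1.68), the centromere and kinetochore genes 1.53-fold (1.41 to 1.67), and the nucleotide enzymes 1.36-fold (1.24 to 1.48). The Mcm and replication genes were 1.05-fold (1.01 to 1.1). The mitotic list as a whole was 1.33-fold and the S list 1.1-fold. Scaling the libraries by their median ratio instead moved the summed log2 ratio from 0.27 to 0.40.

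The 5 highest CD8 ratios belonged to Birc5, Spc24, Cenpa, Ccnb2 and Bub1b. Birc5 stood at 85.5 and 161 CPM (1.89-fold, 1.62 to 2.2), and the kinetochore subunit Spc24 at 31.9 and 61.3 CPM (1.92-fold, 1.5 to 2.49). Cenpa stood at 119 and 208 CPM (1.74-fold, 1.53 to 1.99). Cyclin B2 (Ccnb2), whose promoter is printed above, stood at 34.1 and 62.9 CPM, and the checkpoint kinase Bub1b at 17.7 and 34.4 CPM. The lowest were Mcm6, at 184 and 132 CPM (0.718-fold, 0.642 to 0.805), the checkpoint kinase Bub1 at 27.9 and 22.4 CPM (0.801-fold, 0.602 to 1.08), and the spindle motor Kif11, Mcm2 and Mcm5 at ratios from 0.926 to 0.956. Inside strict-cut cycling CD8 T cells alone, with 95 and 331 cells, Birc5 was 1.5-fold (1.28 to 1.76), Cenpa 1.48-fold (1.28 to 1.73), and Spc24 1.63-fold (1.26 to 2.16). Mcm6 was 0.68-fold (0.588 to 0.788) there and Top2a, the topoisomerase that untangles sister chromosomes, 0.857-fold (0.784 to 0.938). The call that chose these cells counted these same genes and was not repeated without them, so these ratios are not independent of it.

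In regulatory T cells the summed ratio was 1.13 (1.1 to 1.16), with 29 of 40 members higher in the knockout-labelled library and a median log2 ratio of 0.26 against -0.05 over all genes. Here too 0 of 40 members were called, against 0.68% of genes called higher and 0.918% called lower. The mitotic list was 1.34-fold (1.27 to 1.4) and the S list 0.995-fold (0.946 to 1.05). Mki67 led, at 243 and 465 CPM (1.92-fold, 1.69 to 2.18), followed by Cenpa at 108 and 193 CPM, Cenpf at 59.6 and 99.5 CPM, Ccnb2 at 22.9 and 40.6 CPM, and thymidylate synthase (Tyms) at 47.4 and 75.7 CPM. Mcm6 was lowest, at 265 and 188 CPM (0.71-fold, 0.619 to 0.814), followed by Bub1, Mcm3, Mcm5 and the mitotic kinase Cdk1 (58.8 and 52.8 CPM). The Mki67 ratio was 1.39 in CD8 T cells (191 and 267 CPM) and 0.989 in CD4 T cells (124 and 123 CPM), while Top2a stood at 337 and 338 CPM in regulatory T cells.

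In conventional CD4 T cells the summed members were lower in the knockout-labelled library, while their median lay close to that of all genes. The summed ratio was 0.904 (0.873 to 0.937), 14 of 40 members were higher and 26 lower in the knockout-labelled library, and the median log2 ratio over the 35 that passed the filter was -0.07, close to the -0.10 of all genes. As the median over all genes was negative, the count of 26 is not read alone. The member median had the opposite sign, 0.03, with median-ratio scaling or without doublet removal. Median-ratio scaling moved the summed log2 ratio from -0.15 to -0.02 (-0.07 to 0.03). None of the 35 was called, against 0.599% called higher and 0.831% called lower. Tyms was highest at 25.9 and 50.8 CPM (1.96-fold, 1.37 to 2.88). The lowest were cyclin B1 (Ccnb1) at 20.5 and 10 CPM (0.49-fold, 0.284 to 0.845) and the mitotic exit activator Cdc20 at 23.9 and 13.1 CPM (0.551-fold, 0.339 to 0.898).

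In NK cells 32 of 40 members were higher in the knockout-labelled library, a count that includes members under 20 CPM in both libraries. The lists parted: the mitotic list was 2.27-fold (2.01 to 2.58) and the S list 0.874-fold (0.798 to 0.958). Only 22 members passed the filter, 9 of them in 1 library only. The median log2 ratio of the 22 was 0.45, against -0.06 over all genes compared. Of the 22, 8 were called higher and 0 lower, against 1.13% and 1.01% of genes. A member that passed only where it was high had to differ, so the count of calls and the median are no support. Birc5 stood at 3.33 CPM (6 UMIs) and 46.6 CPM (54 UMIs), and the ubiquitin-conjugating enzyme Ube2c at 5.55 CPM (10 UMIs) and 37.9 CPM (44 UMIs). Cenpf rested on 3 and 27 UMIs. Stmn1 stood at 92.7 and 229 CPM (2.47-fold, 2.03 to 3.02). Mcm6 (128 and 59.5 CPM), Mcm2 (43.9 and 19.8 CPM), Mcm5 (40 and 18.1 CPM) and Mcm3 (40 and 20.7 CPM) were the lowest.

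**Figure D5:**
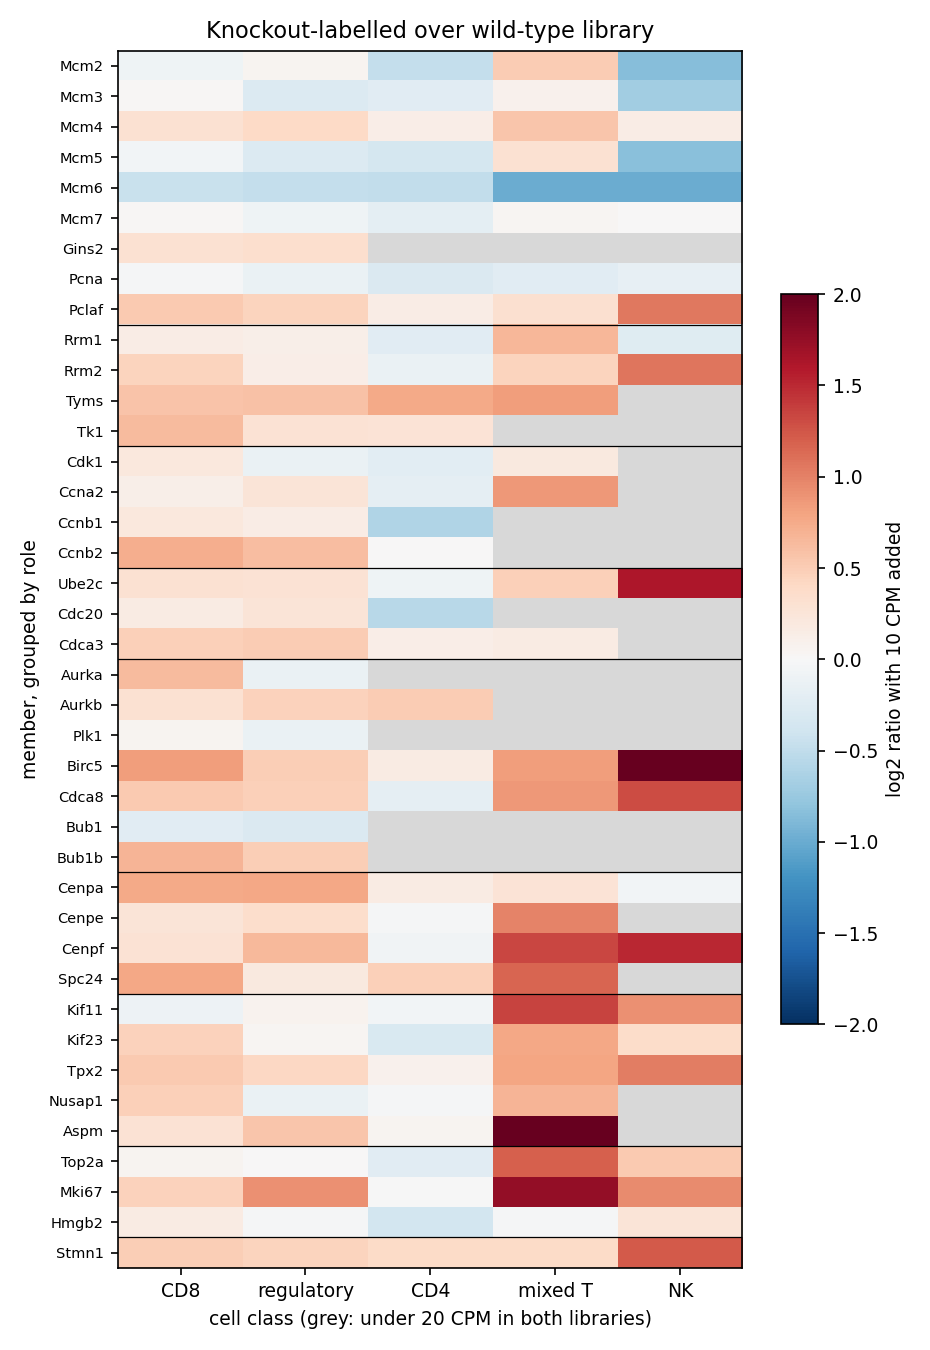
Log2 ratio of each member, library labelled Fcgr2b knockout over wild type with 10 CPM added (colour, red for higher and blue for lower in the knockout-labelled library), by member grouped by role (y axis) and cell class (x axis). Grey marks members under 20 CPM in both libraries, the colour scale ends at 2 and -2, and Mcm6 is blue in all 5 classes.

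In macrophages or monocytes only 6 members reached 20 CPM, and 0 were called, against 4.91% of genes called higher and 6.75% called lower. Hmgb2 stood at 346 and 350 CPM and Pcna at 199 and 218 CPM, while Mki67 stood at 15 and 23 CPM (1.53-fold, 0.928 to 2.7). The summed ratio of 1.08 turned to the other direction without doublet removal, at -0.45 on the log2 scale. In type 1 dendritic cells the summed ratio was 1.72 (1.6 to 1.85) and in neutrophils 4.34 (3.71 to 5.1), the latter from 85 and 51 cells of low depth. Few cells carried these sums in the knockout-labelled library. There 7 cycling neutrophils held 592 of 612 mitotic UMIs, and 14 cycling type 1 dendritic cells held 786 of 875. UMIs of 1 cell are not independent, so these intervals are too narrow. In microglia the summed ratio was 0.786 (0.703 to 0.879).

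Mcm6, a subunit of the replicative helicase (ENSMUSG00000026355, chr1:128331590-128359664, minus strand), was the one member with a ratio below 1 in all 13 groups compared, from 0.0665 in the unnamed cells and 0.125 in type 2 dendritic cells to 0.907 in type 1 dendritic cells. In the latter its log2 ratio, -0.11, lay beside a median of -0.08 over all genes. Over all cells it stood at 123 and 60.2 CPM. It was the lowest member in 8 of the 10 groups in which it passed the filter, and ranked 747 from the bottom of 5891 genes in CD8 T cells and 60 of 5761 in NK cells. Most other helicase subunits were also lower over all cells in the knockout-labelled library. Mcm2 stood at 41.6 and 29.8 CPM, Mcm3 at 70.4 and 54.4 CPM, Mcm5 at 62.3 and 44.7 CPM, and Mcm7 at 54.9 and 43.5 CPM. Mcm4, also of this helicase, did not follow, at 48.7 and 51.2 CPM. Without Mcm6 in the cycling call the overall shares were 15.3% and 13.2%, and the mitotic shares of UMIs were 57.2% and 62.6%. The NK ratio of cycling shares was then 1.17 (0.718 to 1.88).

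Genes around the members were read from lists of G1 regulators, licensing factors and quiescence genes. In CD8 T cells the G1 cyclins and kinases, which push a cell from rest into S phase, summed to 808 and 574 CPM (0.71-fold, 0.673 to 0.749), although 5 of the 8 genes were higher and 3 lower in the knockout-labelled library and the median log2 ratio of the 7 that passed the minimum was 0.04 against -0.11 over all genes. Cyclin D2 (Ccnd2) was lower in the knockout-labelled library in each of the main lymphocyte classes. It stood at 283 and 181 CPM in CD8 T cells (0.64-fold), 713 and 410 CPM in regulatory T cells (0.575-fold), 679 and 379 CPM in CD4 T cells (0.558-fold) and 535 and 324 CPM in NK cells (0.607-fold). The CDK inhibitor p27, encoded by Cdkn1b, was also lower, at 115 and 65.2 CPM in CD8 T cells (0.566-fold, 0.489 to 0.657). Licensing and S-phase checkpoint genes summed to 1.14-fold and quiescence genes to 0.763-fold. Of the quiescence genes 8 of 9 were lower in the knockout-labelled library, with a median log2 ratio of -0.37 against -0.11 over all genes. As the median over all genes was negative, most compared genes were lower too, and the count is not read alone.

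Cycling CD8 T cells were also set against other CD8 T cells of the same library, among genes outside the members. CPM is a share of a group's UMIs, and low-cut cycling cells were deeper. Their median was 6330 against 2979 UMIs in the wild-type and 9065 against 3903 UMIs in the knockout-labelled library. A gene lower in CPM in cycling cells can thus have as many or more UMIs per cell. Of 1473 genes at 100 CPM or more that could be compared, 3.19% were at least 2-fold higher in cycling cells in both libraries and 0.204% at least 2-fold lower. All 21 measured licensing genes were higher in both, 16 of them at least 2-fold. Uhrf1, which copies DNA methylation after replication, stood at 110 against 11.4 CPM and 118 against 18.1 CPM. Of the E2F, RB and DREAM factors 12 of 14 were higher in both; Foxm1 stood at 51.1 against 0.878 CPM and 41.4 against 4.42 CPM. Cks1b, a partner of cyclin-dependent kinases, was the highest gene outside the lists (193 against 17.6 CPM and 239 against 16.5 CPM), followed by the condensin subunit Smc2 and the spindle factor Tacc3.

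The quiescence list went the other way in CPM, with 8 of 9 genes lower in cycling CD8 T cells of both libraries and median log2 ratios of -0.46 and -0.66. Among all 6327 genes outside the cell cycle lists at 20 CPM or more, 37.3% were lower and 38.9% higher in both libraries, by any size, and the medians were -0.02 and 0.03. Btg1, an antiproliferative factor, stood at 955 against 1558 CPM and 610 against 1271 CPM. Ccl5, a chemokine of effector T cells, was the lowest of all named genes, at 1405 against 4219 CPM and 2109 against 10030 CPM. Tcf7, the factor that marks stem-like T cells, stood at 12.3 against 29.8 CPM and 14.7 against 35.1 CPM. Of the exhaustion genes 7 of 9 were lower in both, by small amounts (medians -0.24 and -0.15); Pdcd1, which encodes PD-1, stood at 265 against 301 CPM and 303 against 296 CPM, with no shared direction. Of the G1 cyclins and kinases 5 of 7 were higher in cycling cells of both libraries (medians 0.86 and 0.88) and 1 was lower, Ccnd2 (226 against 327 CPM and 149 against 218 CPM). Of the CDK inhibitors 3 of 4 were higher in both (medians 0.63 and 0.58) and 1 was lower, Cdkn1b (89.9 against 138 CPM and 48.3 against 83 CPM).

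In regulatory T cells, of 1655 genes compared, 2.11% were at least 2-fold higher in cycling cells of both libraries and 0% at least 2-fold lower. Cycling cells were deeper here too, with low-cut medians of 6683 against 3205 UMIs (wild-type) and 7955 against 3548 UMIs (knockout-labelled). Lower CPM therefore need not mean fewer UMIs per cell. All 20 measured licensing genes were higher, 16 at least 2-fold. All 9 exhaustion genes (medians -0.37 and -0.37) and 8 of 9 quiescence genes (-0.85 and -0.54) were lower in both libraries, as were 37.8% of the 6772 genes at 20 CPM or more, of which 33.9% were higher; the medians over those genes were -0.03 and -0.02. Il10, a suppressive cytokine, stood at 149 CPM in cycling and 491 CPM in other wild-type cells, and at 137 and 264 CPM in the knockout-labelled library. Lrrc32, which displays latent TGF-beta on regulatory T cells, stood at 196 against 382 CPM and 73.6 against 210 CPM.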

How the data were processed

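Single-cell 5' RNA libraries (10x Genomics kit, version 2) were made from 1 pool of cells per genotype. The deposited matrices hold raw UMI counts, 1 value for each gene in each cell barcode, which the authors made with Cell Ranger 6.1.2 per the file headers and with mm10 (GRCm38) per the submitters' processing notes; for the annotation release, nothing was given in the sources used here. Members were taken by symbol, their coordinates from GENCODE vM21 (GRCm38) by gene identifier and their promoters from RefSeq. The members and all gene lists were chosen with earlier results of these data known.

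Barcodes under 200 genes or above 10% mitochondrial UMIs were dropped. For each library doublet scores came from 2 simulated doublets per cell, and the top 0.8% per 1000 barcodes were removed, 119 and 676 cells. Counts scaled to 10000 per cell and logged were clustered over both libraries (2000 variable genes, 30 principal components, 15 neighbours, Leiden resolution 1, lymphocytes clustered again). This was done without the listed cell cycle genes, histone, tubulin, antigen receptor or sex-linked genes, Fcgr2b, mitochondrial and ribosomal protein genes. Of the 30 clusters, 2 stayed unnamed, and names needed at least 3 markers detected at 50 CPM or more. The mixed T cell group was the exception. It took any T cell cluster without a subset name, including a Tcf7 and Lef1 cluster with 0 markers. The bounds on cells with a Cd3 UMI (over 80% for T cells, under 25% for other classes) and a Foxp3 UMI (40%) were set after clusters were seen. Thinning was without replacement. Levels, shares and intervals were computed with Python 3.11.15, numpy 2.4.6, scipy 1.17.1, pandas 2.3.3, scikit-learn 1.9.0, leidenalg 0.10.2 and igraph 0.11.9, and the calls were tested on simulated data. Named members are the 5 highest and 5 lowest per class by log2 ratio among those at 20 CPM or more; genes outside the lists were named among the 10 highest and 10 lowest in cycling cells at 100 CPM or more. Alternatives changed thinning, cuts, filters, scaling, doublet removal and the way classes were made. The receptor libraries were not analysed here.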

Additional observations from a re-analysis of the deposited data

How the results depend on the processing

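No paired analysis was possible because there is 1 library per genotype. Of 161 alternative values, 100 stayed within the counting interval or 1.5 times of the reported one, 57 moved further and 4 changed direction; the cause was not tested. The ratio of cycling shares stayed within its interval in CD8, regulatory and CD4 T cells under all 14 alternatives run for each.

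Overall cycling shares, wild type then knockout-labelled, were 10.8% and 9.74% with thinning to 1000 UMIs, 31.6% and 24.8% with 2500 UMIs, 27.3% and 23.3% at 2 or more UMIs, 9.32% and 8.2% at 5 or more, and 10.5% and 11% for 2 or more mitotic UMIs. Alternatives chosen after seeing the data gave 6.14% and 5.95% at 8 or more UMIs, 31.5% and 38.7% without thinning, and 15.3% and 13.2% without Mcm6; clustering with the cell cycle genes, also chosen then, moved no ratio of shares beyond its interval, nor did resolution 2. Mitotic shares of UMIs in the same order were 55.8% and 61.7% (1000 UMIs), 51.8% and 58.6% (2500 UMIs), 51.5% and 59% (2 or more), 56.8% and 62.5% (5 or more), 60.2% and 64.6% (8 or more), 49.1% and 56.2% (without thinning) and 57.2% and 62.6% (without Mcm6), always higher in the knockout-labelled library. Thinning was changed here for the call only, and each share counts all UMIs of the called cells. The knockout-labelled share alone moved to 61% without doublet removal and to 59.4% with at most 5% mitochondrial UMIs.

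The NK ratio of shares, 0.859 (0.565 to 1.29), became 2.37 (1.22 to 4.76) with mitotic genes only. It was 2.28 (0.541 to 11) at 8 or more UMIs and 1.41 (1.1 to 1.79) without thinning. The macrophage or monocyte ratio, 1.98 (0.822 to 6.22), became 0.757 (0.433 to 1.41) with per-cell marker gates and 0.0952 (0.00121 to 7.47) at 8 or more UMIs. Each of these macrophage or monocyte intervals included 1.

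With 1 CPM added the median log2 ratios of members were 0.35 in CD8, 0.31 in regulatory T and 0.54 in NK cells. Median-ratio scaling gave summed and median values of 0.40 and 0.41 in CD8, 0.23 and 0.30 in regulatory T, -0.02 and 0.03 in CD4 T cells, and 0.26 and 0.22 in macrophages or monocytes. Without doublet removal the sums were 0.36 in CD8 T cells and -0.45 in macrophages or monocytes, and the medians 0.30 in regulatory T cells, 0.03 in CD4 T cells and -0.47 in macrophages or monocytes. With at most 5% mitochondrial UMIs they were 0.19 and 0.22 in CD8 T cells and 0.31 and 0.22 in macrophages or monocytes. Medians at 50 CPM or more were -0.18 in CD4 T and 0.26 in NK cells, and 0.56 in NK cells with no minimum. In cycling CD8 T cells, 5 genes rather than 3 were at least 2-fold lower at the strict cut. Depth limits the rare classes most: under 30 scored cells remained for neutrophils, and for mast cells and basophils of the knockout-labelled library.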
